A study of Mus musculus with 8 samples.

Results

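Ttr, Enpp2, Serpinf1, Sulf1, Efemp1, Osmr, Fap, Slc13a3 and Clic6 are 9 genes, most of them for secreted or cell-surface proteins, taken from 14848 genes with a tested probe on the array. They were chosen by measured values of these same samples, namely the difference between Lpcat1 knockout (KO) and heterozygous (HZ) arrays and the covariation with Rpe65 across arrays, so their values are given as a description and were not tested. The 9 genes had 15 of the 56605 probes on the array, and each gene is given by its probe with the highest mean. In 7 of the 9 genes every array labelled KO lay below every array labelled HZ, beside 2.52% of all tested genes, a share from which nothing is read here because this contrast chose the genes. The description of the group as low in KO did not hold for Serpinf1 and Efemp1, in which the labels overlapped. The probe was well above background on all 8 arrays for Ttr, Enpp2, Sulf1, Fap and Clic6, and dimmer on some arrays for Serpinf1, Efemp1, Osmr and Slc13a3.

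RNA came from photoreceptor cells of mice at postnatal day 8 (P8), with 4 samples labelled Lpcat1 HZ and 4 labelled Lpcat1 KO, each on a single-color Agilent microarray. The strain is labelled C57BL/6. The Lpcat1 knockout line had a C57BL6/N background, which carries the rd8 mutation of Crb1. Breeding to C57BL6/J served to eliminate rd8, and no rd8 homozygotes were among the animals used. Retinas were dissociated with trypsin, and cells binding an antibody to CD73, a surface protein of rod photoreceptors, were collected with magnetic beads. Whether the samples came from separate animals is not given in the sources used here, so p-values measure the spread between these samples, which may be technical. All arrays lay on 1 slide, the KO arrays in its row 1 and the HZ arrays in its row 2, so position and genotype cannot be told apart. Levels are log2 signals minus the 75th percentile of the array, and a difference is the mean of KO minus the mean of HZ. Their precision is limited by the number of arrays.

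The retinal pigment epithelium (RPE) lies against the photoreceptor outer segments, takes up their shed tips and regenerates the visual chromophore through Rpe65, its retinoid isomerase. It also secretes carriers, enzymes and matrix proteins into the space between both cell layers and into the membrane beneath it. Several of the genes described here, among them Ttr and Enpp2, are known for strong expression in the RPE and in the choroid plexus, the epithelium that secretes cerebrospinal fluid.

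The targeted gene was measured first. The Lpcat1 level was -0.81, -0.95, -1.02 and -1.17 on HZ arrays 1 to 4 and -0.97, -1.16, -1.11 and -0.85 on KO arrays 1 to 4, a difference of -0.037 (standard error, SE, 0.11). The Lpcat1 values of both labels overlapped, so this probe did not separate the labels, which are used as given, and its position relative to the deleted part was not analysed here. The sorted cells carried the rod markers on all arrays. The mean level of 18 rod genes lay between 5.90 and 6.20 on the HZ arrays and between 5.87 and 6.09 on the KO arrays, and Nt5e, the gene for CD73, had a difference of -0.11 (limma adjusted p = 0.739, SE 0.086).

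Ttr encodes transthyretin, a secreted carrier of thyroid hormone and of the retinol-binding protein. Its level was 2.69, 0.82, 1.83 and 1.91 on HZ arrays 1 to 4 and 0.78, -0.55, 0.48 and -1.46 on KO arrays 1 to 4. HZ array 1 was highest and KO array 4 lowest, and the labels were separated narrowly, since HZ array 2 lay just above KO array 1. The Ttr difference was -2.0 (SE 0.55), a 4.00-fold lower signal. Before scaling, the Ttr intensity ran from 1811 to 6260 units under the HZ label and from 337 to 1542 units under the KO label. A second Ttr probe, well above background on 4 HZ arrays and 2 KO arrays, differed by -2.28. In these bulk samples, fewer cells of a type and less RNA per cell cannot be told apart.

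Enpp2 encodes autotaxin, a secreted enzyme that makes lysophosphatidic acid from lysophosphatidylcholine, which is also a substrate of Lpcat1. The Enpp2 level was -0.67, -1.39, -1.25 and -0.92 on HZ arrays 1 to 4 and -2.53, -2.31, -2.67 and -3.56 on KO arrays 1 to 4. The Enpp2 groups lay apart, with KO array 4 below the other KO arrays and HZ array 2 the lowest of its label. The Enpp2 difference was -1.71 (SE 0.28), and its smallest value within arrays of the same number was -0.92, in replicate 2.

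Sulf1 encodes an extracellular sulfatase that removes 6-O-sulfate groups from heparan sulfate chains. Its level was -0.62, -0.69, -0.84 and -1.10 on HZ arrays 1 to 4 and -1.75, -1.92, -1.76 and -2.22 on KO arrays 1 to 4. Sulf1 differed by -1.10 (SE 0.15), the narrowest spread among the 9 genes, with SDs of 0.21 for HZ and 0.22 for KO. The order of the HZ arrays was another than in Ttr, with HZ array 4 and not HZ array 2 lowest.

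Serpinf1 encodes PEDF, a secreted serpin that inhibits vessel growth and that the RPE is known to release. The Serpinf1 level was -5.74, -5.25, -5.34 and -3.50 on HZ arrays 1 to 4 and -5.63, -4.27, -5.44 and -4.77 on KO arrays 1 to 4. HZ array 4 stood above all others and the remaining values of both labels were mixed. The Serpinf1 difference was -0.07 (SE 0.51) and became 0.41 without HZ array 4. Its probe was well above background on 3 arrays of each label, and its other probes on 0 arrays, so the Serpinf1 values lie near the limit of the measurement.

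Efemp1 encodes fibulin-3, a secreted glycoprotein of the extracellular matrix beneath the RPE. The Efemp1 level was -5.25, -5.04, -4.64 and -6.08 on HZ arrays 1 to 4 and -7.75, -4.94, -6.08 and -7.32 on KO arrays 1 to 4. KO array 2 lay among the HZ arrays and HZ array 4 among the KO arrays. Efemp1 differed by -1.27 (SE 0.61), with the probe well above background on 3 HZ arrays and 1 KO array. A second Efemp1 probe, well above background on 1 array, differed by -0.10.

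Osmr encodes the oncostatin M receptor, which signals together with the shared subunit Il6st. The Osmr level was -2.88, -5.01, -3.84 and -3.86 on HZ arrays 1 to 4 and -5.02, -6.19, -6.11 and -7.89 on KO arrays 1 to 4. HZ array 2 and KO array 1 were nearly equal, and the labels met there without overlap. The Osmr difference was -2.41 (SE 0.64), with the probe well above background on 4 HZ arrays and 1 KO array, so most KO values of Osmr lie near background. A second Osmr probe, well above background on 0 arrays, differed by -0.68, and its labels overlapped.

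Fap encodes fibroblast activation protein, a serine protease anchored in the plasma membrane. The Fap level was -0.25, -2.28, -1.28 and -1.28 on HZ arrays 1 to 4 and -2.53, -4.04, -3.39 and -4.68 on KO arrays 1 to 4. The labels did not overlap in Fap, although HZ array 2 came close to KO array 1. The Fap difference was -2.39 (SE 0.54), a 5.25-fold lower signal, and a dimmer Fap probe, well above background on 2 KO arrays, differed by -2.55.

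Slc13a3 encodes a sodium-coupled transporter of succinate and other dicarboxylates at the plasma membrane. The Slc13a3 level was -2.26, -3.90, -3.01 and -2.80 on HZ arrays 1 to 4 and -4.41, -5.02, -4.84 and -7.55 on KO arrays 1 to 4. KO array 4, where the Slc13a3 probe was not well above background, lay far below the other KO arrays. Slc13a3 differed by -2.46 (SE 0.68), and by -1.77 without KO array 4.

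Clic6 belongs to the chloride intracellular channel family, whose proteins occur in soluble and membrane-bound forms. The Clic6 level was 0.05, -1.90, -0.68 and -0.73 on HZ arrays 1 to 4 and -2.04, -3.03, -2.31 and -4.44 on KO arrays 1 to 4. As in Ttr, HZ array 1 was highest, KO array 4 lowest, and HZ array 2 lay just above KO array 1. The Clic6 difference was -2.14 (SE 0.58), a 4.41-fold lower signal.

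**Figure D1:**
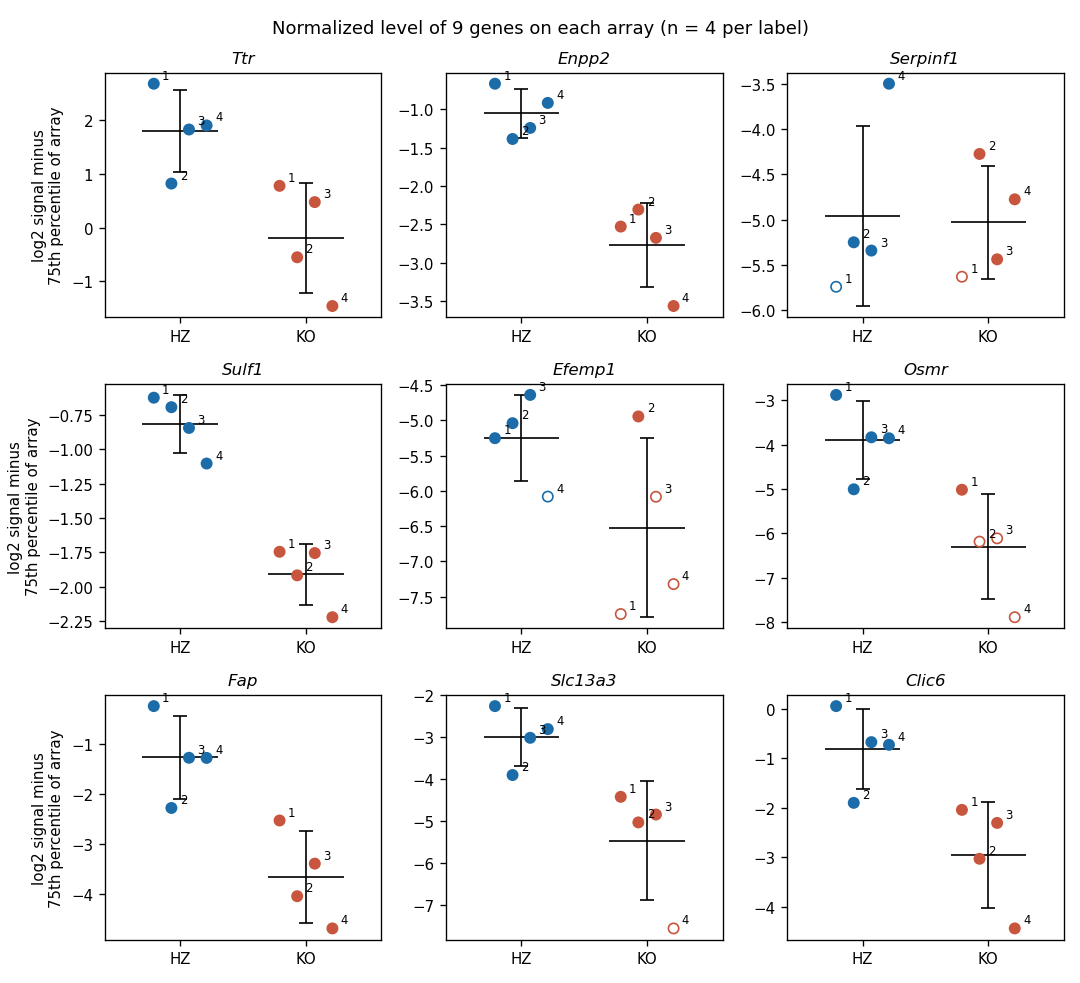
Normalized log2 level of the 9 genes on each array, with arrays labelled HZ in blue and KO in red, numbered by replicate (n = 4 per label). Lines and bars give the mean and SD, and open circles mark arrays where the probe was not well above background. The labels overlap in Serpinf1 and Efemp1 and lie apart in the other 7 genes.

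Over the 9 genes the median difference was -2.0, beside 0.029 over all 14848 genes. Within arrays of the same replicate number, KO was below HZ in all 4 pairs for 7 genes. These are the genes without overlap between labels, so the direction of their pairs was fixed by that, and nothing is read from it. KO was not below HZ for Serpinf1 in replicates 1 and 2 and for Efemp1 in replicate 2. In Clic6 the differences within replicates 1 to 4 were -2.09, -1.13, -1.63 and -3.71, and in Sulf1 they were -1.12, -1.23, -0.91 and -1.12. The Sulf1 difference was thus nearly even across pairs, while that of Clic6 was widest in replicate 4.

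Rpe65 itself was -0.55, -2.18, -1.06 and -1.21 on HZ arrays 1 to 4 and -2.65, -3.83, -3.0 and -5.03 on KO arrays 1 to 4, a difference of -2.38. The order of Fap and Clic6 across the 8 arrays was that of Rpe65, with Spearman's rho of 1. Osmr also had a rho of 1, but its probe was not well above background on KO arrays 2, 3 and 4, so its order there is uncertain. Pearson's r with Rpe65 was 0.995 for Clic6, 0.992 for Ttr, 0.985 for Fap, 0.985 for Osmr and 0.977 for Slc13a3. For Ttr and Slc13a3 rho was 0.976. These r values describe 8 arrays that share a slide and the difference between labels, and a high r was part of how the genes were chosen. Among 14847 genes, 0.721% had an r over 0.9, and the median r was -0.177.

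To set the difference between labels aside, each label was centred on its mean. The centred r with Rpe65 was 0.994 for Clic6, 0.989 for Ttr, 0.961 for Osmr, 0.949 for Fap and 0.945 for Slc13a3. Over all genes the median centred r was -0.214. In these 5 genes the arrays of the same label varied along with Rpe65, but covariation with Rpe65 was part of how the genes were chosen. Most KO values of Osmr and the lowest KO value of Slc13a3 were not well above background, so their course within KO is uncertain. Enpp2 and Sulf1 were different, with r of 0.938 and 0.901 as measured, rho of 0.905 and 0.929, and r of 0.772 and 0.604 after centring. Efemp1 had an r of 0.479 and a rho of 0.405, with -0.046 after centring, and Serpinf1 an r of -0.160 and a rho of -0.381, with -0.373 after centring. The within-label variation of Rpe65 was thus not followed by Efemp1 or Serpinf1.

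KO array 4 and HZ array 1 were the arrays farthest from the median of Rpe65. Without them, over 6 arrays, r was 0.991 for Clic6, 0.989 for Fap, 0.983 for Ttr, 0.974 for Slc13a3 and 0.962 for Osmr. It was 0.837 for Enpp2, 0.807 for Sulf1, 0.131 for Efemp1 and 0.136 for Serpinf1. The r of Efemp1 was thus lower without these arrays.

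**Figure D2:**
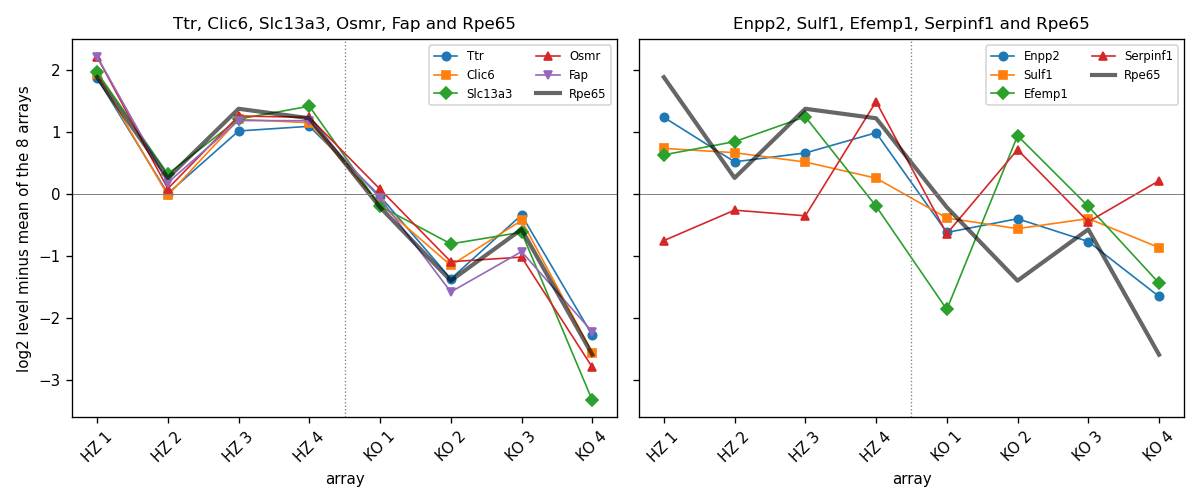
Log2 level of each gene minus its mean over the 8 arrays, with Rpe65 as the thick grey line. Ttr, Clic6, Slc13a3, Osmr and Fap run along Rpe65 from HZ array 1 to KO array 4, whereas Serpinf1 and Efemp1 leave it.

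**Figure D3:**
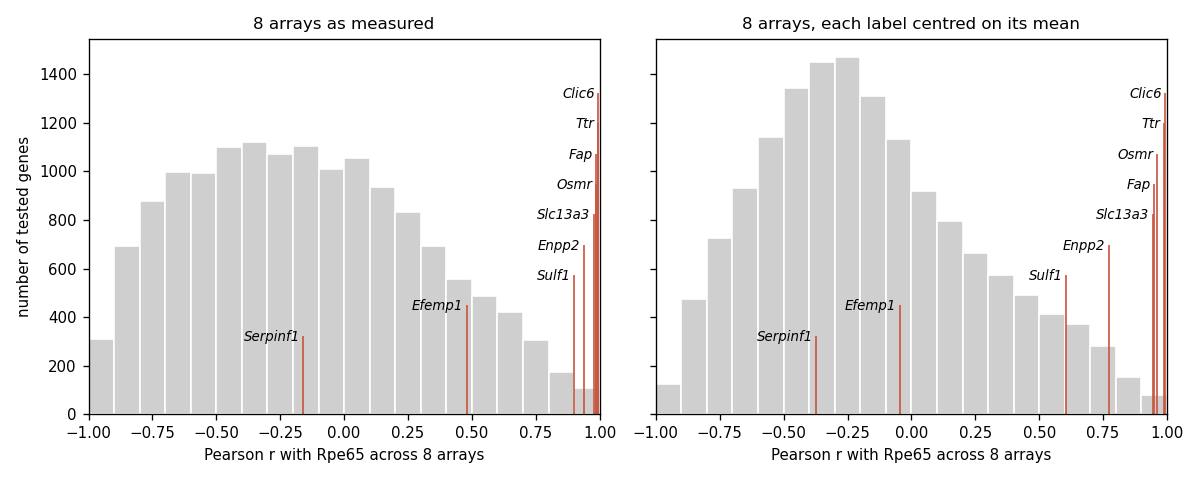
Number of tested genes by Pearson's r with Rpe65 over 8 arrays, as measured and after centring each label on its mean, with red lines at the 9 genes. Enpp2 moves from 0.938 to 0.772 and Sulf1 from 0.901 to 0.604 on centring, while Clic6 lies at 0.995 and 0.994.

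The 9 genes were also set against each other. Ttr and Clic6 had an r of 0.995, and 0.986 after centring. Slc13a3 and Osmr reached 0.981, and 0.948 after centring. Enpp2 was closer to Slc13a3, with 0.953 and a centred 0.923, than to Sulf1, with 0.928 and a centred 0.505. The likeness of Enpp2 and Sulf1 thus came largely with the difference between labels.

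Genes with a like course, members included, were taken by r over the 8 arrays. For Ttr they were Col8a1, a collagen of basement membranes, with r of 0.998, Thbs1, a matrix glycoprotein, with 0.995, and Clic6. For Clic6 they were the protease gene Bace2 (0.998), Thbs1 (0.998) and Ttr. Col8a1, Thbs1 and Bace2 differed by -2.33, -2.33 and -2.04, sizes near those of Ttr and Clic6. For Fap they included C1qtnf5 (0.992) and Col8a1 (0.991). For Osmr they were Krt8, an epithelial keratin (0.993), Trf, which encodes transferrin (0.992), and Mlana, a gene of pigment cells (0.992). For Slc13a3 they were Krt8 (0.991), Ppara (0.991) and Bace2 (0.990), although Ppara differed by only -0.31 against -2.46 for Slc13a3.

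Other genes came up for the remaining members. For Enpp2 the nearest were Sema4a (0.983), Mfsd2b (0.982) and Ptgds, a prostaglandin synthase gene (0.972), which differed by -0.72, -1.31 and -1.56. For Sulf1 they were A2m, which encodes a secreted protease inhibitor (0.971), Tmem98 (0.970) and Sema4a (0.970). Serpinf1 ran with Gm6815 (0.986), Postn, a matrix protein gene of fibroblasts (0.978), and Capn5 (0.973), none of which differed by more than 0.11 in size. Efemp1 ran with Tspan18 (0.962) and Zfp553 (0.931). Each of these r values is among the highest of many genes over only 8 arrays, so high values can arise by chance. Serpinf1 and Efemp1 were not well above background on every array, and Postn only on 2 HZ arrays and 2 KO arrays.

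Upstream sequences were compared because members moved together with Rpe65. RefSeq promoters of build GRCm38.p6 were matched for 4 of the 9 genes, Serpinf1, Slc13a3, Efemp1 and Osmr, and for Rpe65. The 250 bases before the start are shown for Slc13a3 and Osmr, which ran along Rpe65, for Rpe65 itself and for Serpinf1, which did not. They are chr2:165473198-165473447 (minus strand) for Slc13a3, chr15:6874314-6874563 (minus strand) for Osmr, chr3:159598931-159599180 (plus strand) for Rpe65 and chr11:75422624-75422873 (minus strand) for Serpinf1, each printed 5′ to 3′ on the strand of the gene. Capitals mark the motifs CACGTG and CATGTG, which Mitf, a regulator of pigment cells, is known to bind, and TAATCC, which Otx2 and Crx are known to bind, on either strand.
Slc13a3: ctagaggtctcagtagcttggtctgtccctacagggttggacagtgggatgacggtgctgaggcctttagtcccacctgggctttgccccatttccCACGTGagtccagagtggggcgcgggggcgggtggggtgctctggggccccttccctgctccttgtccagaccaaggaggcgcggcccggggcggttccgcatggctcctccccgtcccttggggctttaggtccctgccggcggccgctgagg
Osmr: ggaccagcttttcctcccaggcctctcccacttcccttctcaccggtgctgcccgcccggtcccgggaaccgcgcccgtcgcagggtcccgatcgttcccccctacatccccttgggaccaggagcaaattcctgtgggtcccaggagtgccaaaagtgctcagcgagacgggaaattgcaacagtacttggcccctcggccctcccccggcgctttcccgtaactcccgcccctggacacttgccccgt
Rpe65: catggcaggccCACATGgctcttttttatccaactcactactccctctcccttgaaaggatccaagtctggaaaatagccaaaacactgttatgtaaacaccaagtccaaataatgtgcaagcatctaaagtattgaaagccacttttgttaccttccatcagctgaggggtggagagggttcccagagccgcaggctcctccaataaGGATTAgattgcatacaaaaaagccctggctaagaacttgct
Serpinf1: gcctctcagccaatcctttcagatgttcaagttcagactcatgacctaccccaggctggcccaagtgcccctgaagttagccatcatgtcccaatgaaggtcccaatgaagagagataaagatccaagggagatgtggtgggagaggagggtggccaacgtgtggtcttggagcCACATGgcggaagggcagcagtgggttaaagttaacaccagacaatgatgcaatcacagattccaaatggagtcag

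The motif CACGTG, which reads the same on both strands, was found in Slc13a3, 154 bases before the start, and in 6.02% of 32851 promoters over the same length. CATGTG, or CACATG on the other strand, was found in Rpe65 and in Serpinf1, and in 12.3% of promoters. TAATCC, or GGATTA on the other strand, was found in Rpe65 and in 6.25% of promoters. The upstream bases of Osmr and Efemp1 held none of these motifs, and the matches did not overlap one another. A match is a description of the letters in this window.

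Partners of the 9 genes were taken as 135 other genes of their pathways and families, of which 92 were tested. With thresholds of 1.5 for the fold and 0.5 for the limma adjusted p, the looser choice in the methods, 4 of these 92 genes were lower, beside 1.13% of all genes, and 0 were higher, beside 0.33%. With thresholds of 1.2 and 0.05, limma called 0 of 34303 probes, beside 2803 probes at an unadjusted p under 0.05 and 3 past an adjusted p of 0.05 in the methods' t-test with no fold threshold. In 5 pathway genes every KO array lay below every HZ array, beside 2.52% of all genes, and in 2 every KO array lay above, beside 5.48%. The median difference of the 92 genes was -0.041, beside 0.029 for all genes. At an adjusted p of 0.5 a large share of the calls can be false.

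Around Efemp1, 3 of 10 tested matrix genes were lower past the looser thresholds, beside 1.13% of all genes. Timp3, an inhibitor of matrix proteases that binds fibulin-3, had a difference of -1.71 (SE 0.37, limma adjusted p = 0.362), Fbn1, a fibrillin gene, by -1.26 (SE 0.34, limma adjusted p = 0.438) and Loxl1, a crosslinking enzyme of elastic fibres, by -0.64 (SE 0.18, limma adjusted p = 0.448). All 4 KO arrays lay below all 4 HZ arrays in each. The Loxl1 call was lost with normexp, at -0.43, and with quantile normalization, at -0.56, both under the fold of 1.5. Around Sulf1, 1 of 20 heparan sulfate genes was lower past these thresholds, beside the same 1.13%. This was the glypican gene Gpc3, at -1.51 (SE 0.41, limma adjusted p = 0.441), with all 4 KO arrays below all HZ arrays. Sulf2, the other sulfatase of the Sulf1 family, differed by -0.39 (SE 0.44) without passing.

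Around Ttr, 0 of 8 genes passed. Stra6, the receptor for the retinol carrier that travels with transthyretin, differed by -0.62 (SE 0.26, limma adjusted p = 0.597). With the replicate number as a block, Stra6 passed (limma adjusted p = 0.364), and without HZ array 4 it was -0.41. Around Enpp2, 0 of 14 genes passed, among them receptors for lysophosphatidic acid, lipid phosphatases and the other Lpcat genes. The largest differences there were 0.35 for the receptor Lpar2 (SE 0.32) and -0.27 for the phosphatase Plpp1 (SE 0.14), which with normexp were 0.010 and 0.0024. Lpar2, well above background on only 2 HZ arrays, was 0.65 without HZ array 1 and 0.15 without HZ array 4, where Plpp1 was -0.15.

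Around Osmr, 0 of 14 genes passed. Il6st, the signalling partner of Osmr, differed by 0.07 (SE 0.11), Jak1 by -0.47 (SE 0.26), which was -0.20 without KO array 2, and Il6ra by 0.47 (SE 0.25). Around Slc13a3, 0 of 5 transporters passed, with Slc26a1 at -0.81 (SE 0.29) and Slc25a1 at -0.37 (SE 0.34), the latter -0.07 without HZ array 2, and Slc26a1 passed with the replicate block (limma adjusted p = 0.352). Around Serpinf1, 0 of 10 genes passed, and the serpin genes Serpini1 and Serping1 differed by -0.48 and -0.21, with -0.28 and 0.12 without HZ array 2 and -0.49 for Serping1 without HZ array 4. Around Clic6 0 of 3 and around Fap 0 of 8 genes passed. Clic1 and Clic3 differed by 0.17 and -0.15, and with an array left out ran from 0.0081 (KO array 2) to 0.32 (HZ array 2) and from -0.29 (KO array 2) to -0.024 (KO array 3). The peptidase genes Prep and Mmp2 differed by 0.17 and -0.16, with Mmp2 at 0.27 without HZ array 2 and -0.43 without HZ array 4. Lists this short can hold 0 calls at the shares of all genes, 1.13% lower and 0.33% higher, so nothing is read from these counts.

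The 4 calls among pathway genes depended on single arrays. Leaving out an array at a time gave between 0 and 8 of them, with 0 without HZ array 1, HZ array 3 or KO arrays 2, 3 or 4, 1 without HZ array 4 or KO array 1, and 8 without HZ array 2. With the replicate number as a block they were 8.

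**Figure D4:**
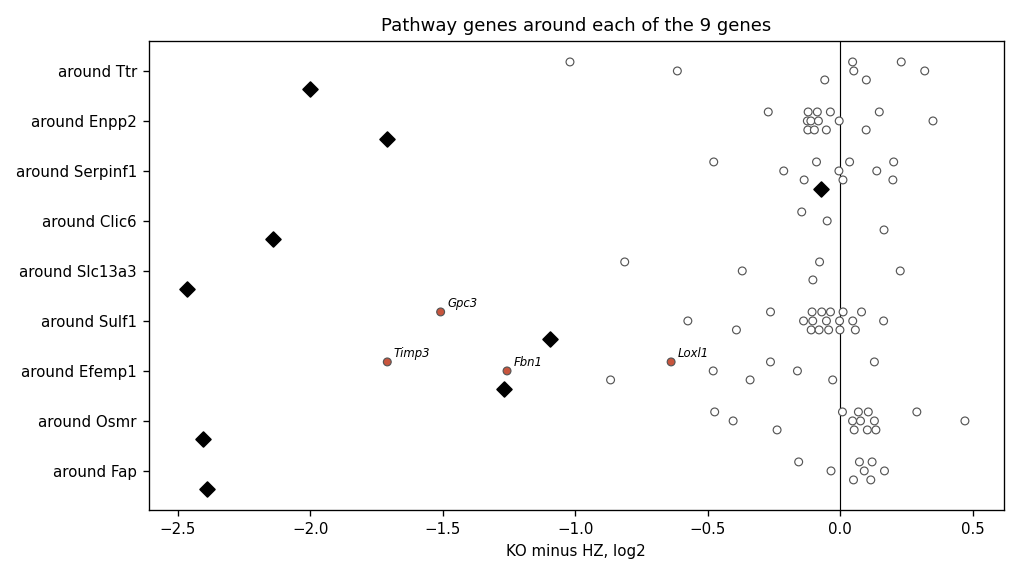
Log2 difference, KO minus HZ, of the 92 tested pathway genes in rows around each of the 9 genes (circles, red where past the looser thresholds), with the gene itself as a black diamond below its row. Timp3, Fbn1, Loxl1 and Gpc3 are the called genes.

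Of 27 RPE markers, 21 were tested, 10 were lower past the looser thresholds and 0 higher, beside 1.13% and 0.33% of all genes. Of the 21, 19 differed in the lower direction, beside 43.2% of all genes, with a median of -0.85. The mean level of the tested RPE markers was -0.63, -1.61, -1.03 and -1.03 on HZ arrays 1 to 4 and -1.71, -2.19, -1.93 and -2.70 on KO arrays 1 to 4. HZ array 1 was highest, HZ array 2 lowest of its label and KO array 4 lowest, as in Ttr, Clic6, Osmr, Fap and Slc13a3. The brightest RPE marker, Dct, an enzyme of melanin synthesis, differed by -1.45 (SE 0.41, limma adjusted p = 0.448, all 4 KO arrays below all HZ arrays). Lrat, Slc16a12, Slc45a2, Oca2, Cldn19 and Slc26a7 were not well above background on enough arrays to be tested. The 10 calls depended on single arrays. They were 0 without HZ array 1 or 3 or KO array 3 or 4 and 1 without KO array 2. They were 4 without HZ array 4, 6 without KO array 1, 15 without HZ array 2 and 15 with the replicate block. Rpe65 is on this list and was part of the rule that chose the 9 genes. The part of RPE transcripts in the differences of the 9 genes was not tested.

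Choroid plexus markers, of which Kcnj13 is also an RPE marker, were examined because Ttr, Enpp2 and Clic6 are known there. Of 16 markers 13 were tested, and past the looser thresholds 4 were lower and 0 higher, beside 1.13% and 0.33% of all genes. The 4 were Car12, Cldn1, Sostdc1 and Folr1, with differences of -2.02, -1.75, -1.37 and -1.34. The median was -0.21, and -0.39 without HZ array 1. Car12 and Cldn1 were well above background on 4 HZ arrays and only 2 KO arrays, so their sizes are taken against dim KO values. The Car12 call was lost with normexp, at -0.57, and with quantile normalization (limma adjusted p = 0.523), and the Folr1 call with normexp, at -0.49. The 4 calls were 0 without HZ array 1 or 3 or KO array 2, 3 or 4. They were 2 without HZ array 4, 3 without KO array 1, 6 without HZ array 2 and 6 with the replicate block. The mean level of the tested choroid plexus markers was -1.51, -1.92, -1.57 and -1.67 on the HZ arrays. On the KO arrays it was -2.25, -2.32, -2.21 and -2.47. The brightest of them, Cab39l, differed by 0.08 (SE 0.11) and ran from 0.033 (HZ array 4) to 0.17 (KO array 1) with an array left out, and the markers Kl, Prlr and Cldn2 were not tested because they were too dim. Their part in the values of Ttr, Enpp2 and Clic6 was not tested either.

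Fibroblast markers bear on Fap, which is named after that cell type. Only 5 of 15 were tested, and Col1a1, Col3a1, Dcn and Lum were among those too dim. The median of the 5 was -0.32, and -0.21 without KO array 1. Called were 1 lower and 0 higher, beside 1.13% and 0.33% of all genes, and 1 had no overlap, beside 2.52%. This was Ogn, lower by -1.98 (SE 0.51, limma adjusted p = 0.422, all 4 KO arrays below all HZ arrays), with its probe well above background on 4 HZ arrays and only 2 KO arrays. The brightest, Pdgfra, differed by 0.55 (SE 0.27) without passing. It passed as higher with normexp, at 0.64 (limma adjusted p = 0.377), and without HZ array 2, at 0.60. Without HZ array 1 it was 0.29. With the replicate block its limma adjusted p was 0.351, but the difference stayed at 0.55, under the looser fold threshold. Pdgfra was thus not called there. The mean fibroblast level was -3.49, -3.37, -3.19 and -2.58 on the HZ arrays and -3.75, -3.30, -3.69 and -3.72 on the KO arrays, where KO array 2 overlapped with HZ. In Fap the labels did not overlap, and the part of fibroblasts in its difference was not tested. The calls of Dct, Car12 and Ogn were each lost without HZ array 1, 3 or 4 or KO array 2, 3 or 4, those of Dct and Ogn also without KO array 1, and their limma adjusted p ran over the alternatives from 0.220 to 0.872, 0.254 to 0.872 and 0.235 to 0.799.

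Rod markers had 0 calls among 18 tested genes, beside 1.13% lower and 0.33% higher among all genes, and a median of -0.092, which was -0.15 without HZ array 2. With normexp and with the mean of a gene's probes 1 was called lower. The rod gene with the brightest probe, Pde6g, differed by -0.17 (SE 0.12), and by -0.11 without HZ array 4. The largest difference was that of Cnga1, -0.55 (SE 0.26), which was -0.30 without KO array 3. Of 12 microglia markers, 12 had a positive difference, with a median of 0.75, while 43.2% of all genes had a negative difference. Past the looser thresholds 1 was called higher, beside 0.33% of all genes. This was Tmem119, at 0.76 (SE 0.19, limma adjusted p = 0.409, all 4 KO arrays above all HZ arrays), which was well above background on 1 HZ array and 3 KO arrays. The Tmem119 call was lost with normexp, at 0.19, and with quantile normalization (limma adjusted p = 0.508). The 1 call among microglia markers was 8 with the replicate block and 8 without HZ array 4. It was 7 without HZ array 2 and 0 without any other array. The mean level of the microglia markers was -3.09, -2.70, -2.92 and -1.89 on the HZ arrays. On the KO arrays it was -1.49, -1.86, -2.31 and -2.11, and HZ array 4 overlapped with KO. Their part in the differences of the 9 genes was not tested.

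With normexp the difference was smaller in size for each of the 9 genes but Ttr. This alternative starts from the median signal, models background and adds an offset of 50 units to each intensity, so that several steps change together, and which of them moved the values was not tested. The difference was -0.78 for Osmr, -1.11 for Slc13a3, -1.43 for Fap and -0.26 for Efemp1, and -1.46 for Rpe65. It was -2.10 for Ttr, against -2.0 above, -1.63 for Clic6 against -2.14, -1.31 for Enpp2 against -1.71 and -1.0 for Sulf1 against -1.10. With the values the authors normalized, Ttr, Enpp2, Clic6, Slc13a3, Sulf1, Osmr and Fap each lay within 0.05 of the differences above. Serpinf1 changed sign with quantile normalization, to 0.029.

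**Figure D5:**
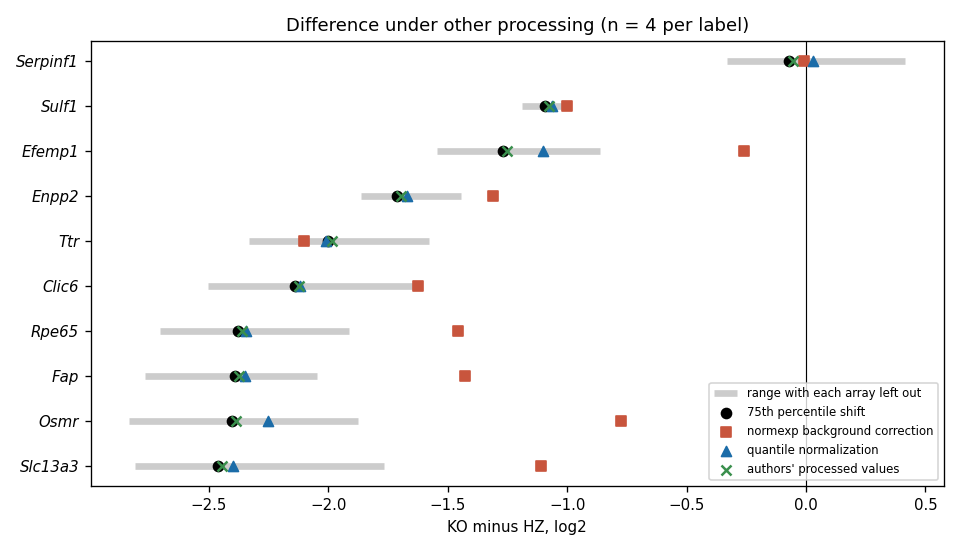
Log2 difference, KO minus HZ, of the 9 genes and Rpe65 under 4 ways of processing, with grey bars for the range when an array is left out (n = 4 per label in the full data). Normexp brings Osmr to -0.78 and Slc13a3 to -1.11, and the bar of Serpinf1 crosses 0.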

How the data were processed

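The authors deposited scanner output of 8 arrays, in which Agilent Feature Extraction 10.7.1.1, per the submitters' processing notes, gives a background-subtracted intensity for each spot. Their GeneSpring values, deposited on a log2 scale, had been shifted by the 75 percentile and centred per probe on its median, and were an alternative here.

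From the intensities, log2 signals were shifted by the 75th percentile of each array over 59305 non-control spots, which lay between 882 and 1024 units. Spots marked as outliers were dropped before averaging per probe. Tested were 34303 of 56605 probes, those above background by the software's mark on 4 or more arrays with 3 or more values per label. The mark was set for 59.5% to 64.6% of probes per array. RefSeq accessions gave a symbol to 32994 probes through a GRCm38.p6 table, used for names and promoters. The KO and HZ labels were compared in limma 3.58.1 (R 4.3.3; lmFit, eBayes, two-sided p), adjusted by Benjamini-Hochberg over all tested probes, and files were read with the data.table package (1.17.8). Calls used a fold over 1.5 with an adjusted p under 0.5, and a fold over 1.2 with an adjusted p under 0.05. The comparison was tested on simulated data. Plots were drawn with matplotlib 3.10.9.

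The members and the lists of markers and pathway genes were chosen with earlier results of these data known, and the motifs after the results were seen. Named are the members, Lpcat1, Rpe65, the 3 genes with the highest r for each member, pathway genes past the looser thresholds or otherwise the 2 with the largest difference, and the brightest and most different marker of a cell type. Others, such as Nt5e, Sulf2, Il6st and genes that make up a count, were named after their values were seen. Some genes that this rule takes in are not reported here.

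Alternatives were normexp with an offset of 50, which had been planned on the mean signal of a spot and was run on the median signal because the files hold no mean signal, quantile normalization, a percentile over bright probes alone (marked on every array), no filter and a stricter filter on dim probes, the authors' values, the replicate block, each array left out, the mean of a gene's probes, trend and robust eBayes and the methods' t-test. Replicate numbers were checked as a pairing. For arrays of the same number, the r between deviations from the label means was 0.164 to 0.337, over 0.1 in 4 of 4 pairs, and for other numbers it was -0.340 to 0.118. The numbers thus pair the arrays, and what they share was not analysed here.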

Additional observations from a re-analysis of the deposited data

Results flagged for a closer look

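In a group of 4 arrays, the array far from the others was looked for in 130 groups of values, and 7 were found, beside about 6.5 that chance gives at 1 in 20. Plpp1 was -0.034 on HZ array 4, with the nearest other HZ array at -0.50. Serpini1 was -0.11 on HZ array 2, with the nearest at -0.90. Prep was 1.26 on KO array 3, with the nearest at 1.37. The fibroblast list, centred per gene on its mean, stood at 0.088 on KO array 2, with the nearest KO array at -0.31. The genes around Ttr stood at -0.20 on KO array 4, with the nearest at -0.021, and those around Fap at 0.15 on KO array 2, with the nearest at -0.0056. HZ array 4 had 458 spots marked as non-uniform, and the next HZ array 22. None of these arrays was left out on that account.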

How the results depend on the processing

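Ttr, Enpp2, Clic6, Slc13a3, Sulf1, Osmr, Fap and Efemp1 kept their direction under each alternative that gave them a value. Serpinf1 turned to 0.029 with quantile normalization, and ran from -0.33 to 0.41 with each array left out. Its r with Rpe65 ran from -0.71 to 0.047. The median of the members was -1.11 with normexp. The median r with Rpe65 was 0.985 with the stricter filter on dim probes, 0.953 with the mean of a gene's probes and 0.971 to 0.987 with each array left out. The stricter filter left 5 members with unchanged values, each already without overlap above, so their count there was fixed beforehand. The causes were not tested.

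The 279 lower and 78 higher probes past the looser thresholds were 0 to 1267 and 0 to 350 with each array left out, both highest without HZ replicate 2, and 32 and 9 with no filter on dim probes. Lower probes numbered 178 with quantile normalization. With the replicate block, 913 probes were lower and 254 higher. Past the stricter thresholds, in place of 0 probes, 17 passed with normexp, 2 with quantile normalization, 3 with trend and robust eBayes and 2 with the methods' t-test, which had 3 with no fold threshold. The 4 lower pathway genes were 0 with no filter, 8 with the replicate block, 8 with the mean of a gene's probes, 7 with trend and robust eBayes and 0 to 8 with each array left out. The 5 pathway genes without overlap were 8 with quantile normalization, 3 with the mean of a gene's probes and 5 to 8 with each array left out. Of cell type markers, the 10 lower RPE calls were 1 with no filter on dim probes, 7 with quantile normalization and 15 with the replicate block, and the 4 lower choroid plexus calls were 0, 3 and 6. With each array left out they ran from 0 to 15 and from 0 to 6. The 1 higher microglia call was 3 with normexp, 8 with the replicate block and 0 to 8 with each array left out. The replicate block also brought Stra6, Slc26a1, Kdr, Vwf, Rlbp1 and Cx3cr1 past the looser thresholds.

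With normexp, Lpcat1 was 0.0049, Plpp1 0.0024, the melanocyte and Schwann list median 0.069, the Serpinf1 pathway median -0.13 and the Sulf1 pathway median 0.016. With quantile normalization, the Slc13a3 pathway median was 0.037 and Apoe -0.040. With a percentile over bright probes, the Serpinf1 pathway median was -0.028 and Apoe -0.012. With the stricter filter, the endothelium median was -0.055 and the melanocyte and Schwann median 0.030. With each array left out, values ran from -0.097 to 0.022 for Lpcat1, -0.49 to 0.12 for Serping1, -0.43 to 0.27 for Mmp2 and -0.18 to 0.20 for Apoe. List medians ran from -0.18 to 0.17 for pericytes, -0.66 to 0.013 for melanocytes and Schwann cells, -0.055 to 0.096 around Serpinf1, -0.19 to 0.046 around Clic6 and -0.39 to 0.0081 around Slc13a3. The causes were not tested. Signal over background limits Serpinf1, Efemp1, Osmr and Slc13a3, whose probes were not well above background on every array.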

Other observations

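Further cell type lists gave these values, beside 1.13% called lower and 0.33% called higher among all genes. Of 10 Muller glia markers, 0 were called and the median was -0.29, with -0.58 without KO array 2 and -0.036 without HZ array 2. Calls were 2 lower with normexp, with the replicate block and without HZ array 2. The brightest, Apoe, differed by 0.019, with -0.18 without KO array 2 and 0.20 without KO array 4, and Rlbp1, also an RPE marker, by -0.97 (SE 0.37, limma adjusted p = 0.581). Of 6 tested endothelial markers, 0 were called, with a median of 0.21, Kdr at -0.79 and Vwf at 1.41. Kdr was -0.29 without HZ array 2 and Vwf 0.81 without HZ array 3, and 3 of the 6 were called higher without HZ array 2. Of 4 tested pericyte markers, 0 were called, with a median of 0.041 that was -0.18 without HZ array 4 and 0.17 without HZ array 2, where 1 was called higher. On all arrays Acta2 was at -0.35 and Rgs5 at 0.72. Acta2 was -0.16 without KO array 2, and Rgs5 was 0.37 without KO array 4 and 1.17 without KO array 1. Of 5 tested melanocyte and Schwann cell markers, Sox10 was called lower, at -0.92 (SE 0.27, limma adjusted p = 0.470), a call lost with normexp, at -0.34, and with quantile normalization (limma adjusted p = 0.595). Its probe was well above background on 4 HZ arrays and only 2 KO arrays, and the call held without HZ array 2 and was lost without any other array. Among microglia markers Cx3cr1 differed by 0.93 (SE 0.33, limma adjusted p = 0.540).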
